A study of Mus musculus with 4 samples.

Results

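The comparison described here set invariant natural killer T (iNKT) cells of Ezh2 knockout mice (KO) against iNKT cells of wild-type mice (WT), gene by gene. Its members were the 8381 genes, of 22481 gene symbols used, whose FPKM (fragments scaled to transcript length and library size) reached 5 in at least 1 of the 2 iNKT libraries. Of these, 7470 reached 5 FPKM in both libraries, 588 in KO alone and 323 in WT alone. At the edge of the filter, Gm6623 entered with 4.78 FPKM in WT and 5.002 in KO, and Zcchc4 stayed out with 3.94 and just under 5. Splenic cells of C57BL/6 mice were used throughout, with WT animals on one side and Ezh2fl/fl CD4-Cre animals on the other; the Cre driver is active from the stage at which developing T cells express CD4, and in every T cell lineage that passes through it. The iNKT cells were sorted on staining for T cell receptor beta and for CD1d tetramers that carried the lipid PBS-57. The same genes were also read in CD44hi CD4+ T cells of both genotypes, sorted by T cell receptor beta, CD44 and CD4. Each of the 4 groups was 1 library: the differences lack a replicate check, no test was possible, and neither the age of the mice nor the number pooled is given in the sources used here.

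EZH2 is the enzyme of Polycomb repressive complex 2 (PRC2). The complex methylates histone H3 at lysine 27, a mark of silenced genes, mostly at promoters that lie in CpG-rich DNA. iNKT cells carry a semi-invariant T cell receptor that recognises lipids on CD1d, and they leave the thymus already primed to make cytokines. Their subsets are set by transcription factors, among them PLZF in the whole lineage and T-bet in the interferon-gamma producing type 1 cells that depend on IL-15. In bulk RNA, fewer cells of one subset and less RNA per cell cannot be told apart, and this holds for every difference below.

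Both iNKT libraries were of similar depth, the estimated number of fragments in KO being 1.08 times that in WT, and 1 fragment in a transcript of 2 kilobases was worth 0.102 and 0.0947 FPKM. The CD44hi libraries were deeper, WT at 3.68 and KO at 4.92 times the depth of WT iNKT. Ezh2 itself was at 15.3 FPKM in WT iNKT and 16.8 in KO iNKT; a value over the whole gene keeps the exons outside the floxed part, so it does not check the genotype labels, and KO means the library labelled KO. The defining iNKT and T cell genes were present in both libraries: Cd3e was at 357 and 307 FPKM, Cd3g at 513 and 519, and of 12 iNKT markers among the members 2 were higher (Zbtb16 and Slamf6), 2 lower (Cxcr6 and Il2rb) and 8 within 2-fold. Thy1, a T cell surface antigen outside that marker list, was lower in KO (449 and 82.7). Markers of B cells, myeloid cells and CD8 T cells were low, whereas some of NK cells and a few of plasmacytoid dendritic cells were not. Of 17 B and plasma cell markers 4 were listed at 0 in both libraries and 10 were under 1 FPKM in both; their summed FPKM was 25.6 in WT and 47.5 in KO, with Cd74 at 14.4 and 33.1. Of 21 myeloid markers 9 were under 1 FPKM in both libraries, and they summed to 43.4 and 22.9. The CD8 T cell markers Cd8a and Cd8b1 summed to 0.958 and 0.316. Of 10 plasmacytoid dendritic cell markers 6 were under 1 FPKM in both libraries, with Siglech listed at 0 in both. Their sum of 162 and 129 rested mostly on Bst2 (101 and 78.7) and, in WT, on Ccr9 (41.0 and 8.81), which was lower in KO. Pacsin1 was higher (11.9 and 29.9), and Irf8 was within 2-fold (6.79 and 10.4). The NK cell and ILC1 markers summed to 245 and 230 FPKM, but single ones differed: of 8 members 2 were higher and 4 lower. Gzma, which encodes granzyme A, was at 1.72 and 89.0, 51.7-fold higher (95% counting interval 27.3 to 126), and Klra9 was also higher, whereas Prf1, which encodes perforin (11.6 and 1.45), Klre1, Tyrobp and Fcer1g were lower, and Klrb1c was at 177 and 96.2. The part of all these cells in the differences below was not tested. Y-linked transcripts were found in WT CD44hi, where Ddx3y was at 11.5 FPKM and Eif2s3y at 22.7. Both were listed at 0 in both iNKT libraries, and in KO CD44hi they were at 0.00445 and 0. Xist, a transcript of female cells, was at 55.3 and 76.8 in WT and KO iNKT. In WT and KO CD44hi it was at 46.8 and 80.0.

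More genes passed 2-fold upward than downward in KO iNKT cells, an excess that was not seen among genes at 20 FPKM or more in 1 of the 2 libraries (156 higher and 157 lower). A gene is called higher or lower here when log2(FPKM + 1) differed by at least 1, that is by 2-fold on that scale. By this rule 391 members were higher in KO (4.67%) and 259 lower (3.09%), together 650 (7.76%), while 7731 stayed within 2-fold. The median difference over all members was 0.03, with quartiles at -0.21 and 0.29. At 4-fold, 105 members were higher (1.25%) and 53 lower (0.632%). At 16-fold, 10 were higher and 4 lower. The filter fixes part of the levels that follow, since a gene can pass it through 1 library alone: 159 of the genes called higher and 170 of those called lower were at 5 FPKM or more in both libraries. The genes called higher had a median of 3.64 FPKM in WT and 14.2 in KO, and 55 of them (14.1%) were under 1 FPKM in WT. The genes called lower had a median of 28.8 FPKM in WT and 8.497 in KO, and 13 of them (5.02%) were under 1 FPKM in KO. Among the genes that were higher, 5 were listed at 0 in WT: Fgf18 (11.6 FPKM in KO), Grb10 (8.60), Batf3 (7.05), Asns (6.34) and Noxa1 (5.74). The genes listed at 0 in KO among those lower were Hrh4 (5.81 FPKM in WT) and the predicted gene Gm12238 (41.8).

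**Figure D1:**
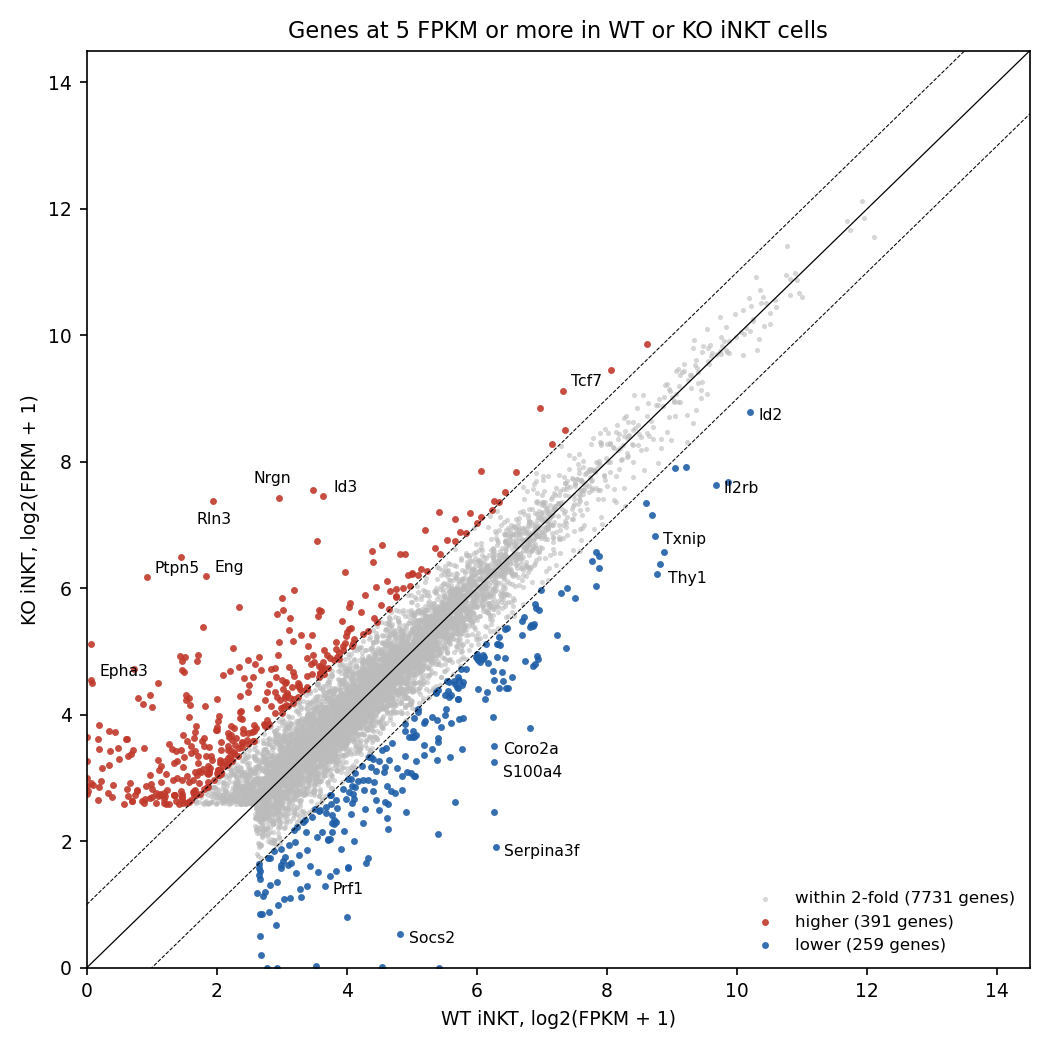
Each point is 1 of the 8381 members, with log2(FPKM + 1) in WT iNKT on the x axis and in KO iNKT on the y axis, both log scales; dashed lines mark 2-fold. The 391 genes called higher (red) reach down to the left edge, where WT is near 0, while the 259 called lower (blue) include abundant genes such as Id2, Il2rb, Thy1 and Txnip.

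Summed over the genes called higher, 4517 FPKM in WT became 14078 in KO, and over those called lower, 17320 became 5543. Of those called lower, 86 were at 50 FPKM or more in WT, against 60 of the genes called higher that were at 50 or more in KO. Among members with an estimated fragment count, the 95% exact counting interval of the plain KO to WT ratio left out 1 for all 358 genes called higher and all 235 called lower. These intervals cover counting error only and say nothing of mice or sorts. Since the genes were called on the same values, the count tests nothing further.

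The promoters of the genes that differed were CpG-poor more often than those of other members. Promoter windows, 250 bases before to 50 after the RefSeq start on GRCm38.p6, were read for 6754 members. A window was called CpG-rich when its observed to expected CpG ratio was at least 0.6 and its GC content at least 50%. This held for 74.5% of all members and 75.9% of those within 2-fold, but for 60.1% of the genes called higher (185 of 308) and 51.3% of those called lower (102 of 199). At 4-fold the shares were 46.2% (36 of 78) and 21.2% (7 of 33). The examples below are printed with each CpG in capitals, 5′ to 3′ on the gene's strand. For the genes that were higher they are a pair of CpG-rich transcription factor genes and a receptor gene with few CpGs. For those that were lower they are a pair of CpG-poor genes, so the CpG-rich windows of that set (102 of 199) are not shown. The examples were chosen after their values were seen. Id3 (chr4:136143572-136143871, plus strand, 11.4 FPKM in WT and 175 in KO) held 19 CpGs, Hhex (chr19:37434591-37434890, plus strand, 1.85 and 29.3) held 37, Pdcd1 (chr1:94052504-94052803, minus strand, 10.2 and 187) held 5, S100a4 (chr3:90603520-90603819, plus strand, 76.1 and 8.497) held 2 and Serpina3g (chr12:104235897-104236196, plus strand, 76.1 and 4.51) held 4.
Id3: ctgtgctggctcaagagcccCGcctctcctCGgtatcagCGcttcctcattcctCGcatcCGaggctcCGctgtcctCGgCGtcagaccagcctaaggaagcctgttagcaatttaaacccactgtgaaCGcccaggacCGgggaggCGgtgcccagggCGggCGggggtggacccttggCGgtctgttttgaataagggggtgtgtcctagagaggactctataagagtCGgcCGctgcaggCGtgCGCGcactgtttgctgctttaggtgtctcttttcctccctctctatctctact
Hhex: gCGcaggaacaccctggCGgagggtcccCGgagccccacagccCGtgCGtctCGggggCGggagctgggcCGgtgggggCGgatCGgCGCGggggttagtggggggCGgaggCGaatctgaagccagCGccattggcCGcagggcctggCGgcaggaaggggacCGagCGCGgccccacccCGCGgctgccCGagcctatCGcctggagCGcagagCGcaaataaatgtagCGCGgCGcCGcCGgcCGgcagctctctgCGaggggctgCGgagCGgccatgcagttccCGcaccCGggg
Pdcd1: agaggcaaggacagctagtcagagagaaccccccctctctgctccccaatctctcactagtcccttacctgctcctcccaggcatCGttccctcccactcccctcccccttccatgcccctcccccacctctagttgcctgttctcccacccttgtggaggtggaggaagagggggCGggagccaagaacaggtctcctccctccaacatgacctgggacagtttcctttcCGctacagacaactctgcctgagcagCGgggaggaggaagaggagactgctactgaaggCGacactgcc
S100a4: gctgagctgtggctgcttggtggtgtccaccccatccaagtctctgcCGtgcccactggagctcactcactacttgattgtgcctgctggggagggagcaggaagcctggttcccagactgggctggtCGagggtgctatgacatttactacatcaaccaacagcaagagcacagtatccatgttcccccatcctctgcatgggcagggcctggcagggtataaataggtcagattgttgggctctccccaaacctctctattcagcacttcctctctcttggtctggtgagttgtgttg
Serpina3g: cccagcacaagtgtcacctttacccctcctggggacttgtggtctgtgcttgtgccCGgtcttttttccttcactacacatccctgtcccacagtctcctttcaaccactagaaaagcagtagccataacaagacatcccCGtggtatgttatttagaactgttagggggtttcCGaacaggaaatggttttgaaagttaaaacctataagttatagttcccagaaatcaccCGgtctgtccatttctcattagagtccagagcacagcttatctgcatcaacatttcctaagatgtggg

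Short motifs in the same windows were counted on both strands. The ETS-type motif CCGGAAG, itself a CpG-containing word, was in 22.5% of all member windows and 23.8% of those within 2-fold, but in 6.17% of the windows of genes called higher (19 of 308) and 9.55% of those called lower (19 of 199); at 4-fold it was in 1 of 78 and 2 of 33. The RUNX-type motif TGTGGTT was in 3.64% of all windows, 3.57% of those higher and 8.04% of those lower (16 of 199), but at 4-fold in 6.41% of those higher (5 of 78) and 3.03% of those lower (1 of 33). The E-box CAGGTG was in 16.1% of all windows, 19.8% of those higher and 17.1% of those lower, and at 4-fold in 25.6% (20 of 78) and 30.3% (10 of 33). The TATAAA motif was in 6.65%, 7.14% and 9.05%. A TCF-type word, CTTTGAA or CTTTGAT, was in 6.04%, 4.87% and 6.53%. A match is a string of letters in this window and no evidence of binding.

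Genes that were higher, and genes that were lower, stood next to one another on chromosomes more often than their overall share. With members placed in chromosome order, 8.48% of the genes called higher were followed by another that was higher, against 4.67% of all placed members, and 10.1% of those lower were followed by another that was lower, against 3.09%. At 3-fold the share for the genes that were higher was 4.71%, against 2.04% of all placed members. Some neighbours are near-identical copies, between which reads can be split. The chemokine receptor genes Cxcr6 and Ccr2 on chromosome 9 were both lower. On chromosome 6, the NK receptor genes Klre1, Klrd1 and Klrk1 were lower, with Klrd1 at 182 and 56.5 FPKM in WT and KO, while Klra3, Klra1 and Klra22 were higher; the Klra genes are near-identical copies, and their single values are uncertain. On chromosome 11, Top2a, Igfbp4 and Ccr7 were higher together. Id3 and E2f2 on chromosome 4, Nrp1 and Itgb1 on chromosome 8, Vim and St8sia6 on chromosome 2 and Arhgap24 and Ptpn13 on chromosome 5 were pairs that were both higher. On chromosome 3, S100a4 was lower and its neighbour S100a6 higher (84.9 and 183 FPKM).

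Chromosome 17 had the largest share of its members higher: 42 of 494 (8.502%), with 8 lower (1.62%). On the other chromosomes the share higher ran from 2.47% to 6.98%, the top of that range being chromosome 6, which carries Ezh2 and the NK receptor genes and also had the largest share lower (5.74%). In the CD44hi pair only 1 of those 42 genes on chromosome 17 was higher, and their median difference there was -0.07. The labels give C57BL/6 for all groups, and the breeding of the floxed animals and of their controls is not given in the sources used here. The 42 genes on chromosome 17 included Tagap1, Rnaset2b and Tagap, a run of 3, and Rnaset2a, whose copies share reads. Among them were also Hsp90ab1 beside Slc29a1, and Lclat1, Ehd3 and Xdh in another run. Uhrf1, Chaf1a and Foxp4, like several of these genes, are read by function below and are part of the same 42. Within 10 megabases of the start of Ezh2 lay 64 members, of which 6 were higher (9.38%) and 4 lower (6.25%). Among them Tmem176b, Tmem176a and Gimap7 were lower and Gpnmb and Igf2bp3 higher, all within 1.55 megabases or less of Ezh2, with Gpnmb at 7.49 and 18.99 FPKM and Igf2bp3 at 1.17 and 7.74.

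Members were then read by function, in lists of signalling, adhesion, metabolic, transcription factor, chromatin and cell state genes. The count of each list is set against the 4.67% higher and 3.09% lower and the median of 0.03 of all members, and none of it is a test. As a background to them, 13 of 15 type 1 effector genes were lower and 0 higher (median -1.80), and 8 of 14 follicular helper T cell genes were higher and 0 lower (median 1.02); both of these lists were drawn up with those differences known. Many counts below are small and rest on genes near the threshold: of 140 counts, the higher and the lower of 70 lists, 98 stayed within 1.5 times with a pseudocount of 5 in place of 1, and 93 among genes at 20 FPKM or more in 1 of the 2 libraries.

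**Figure D2:**
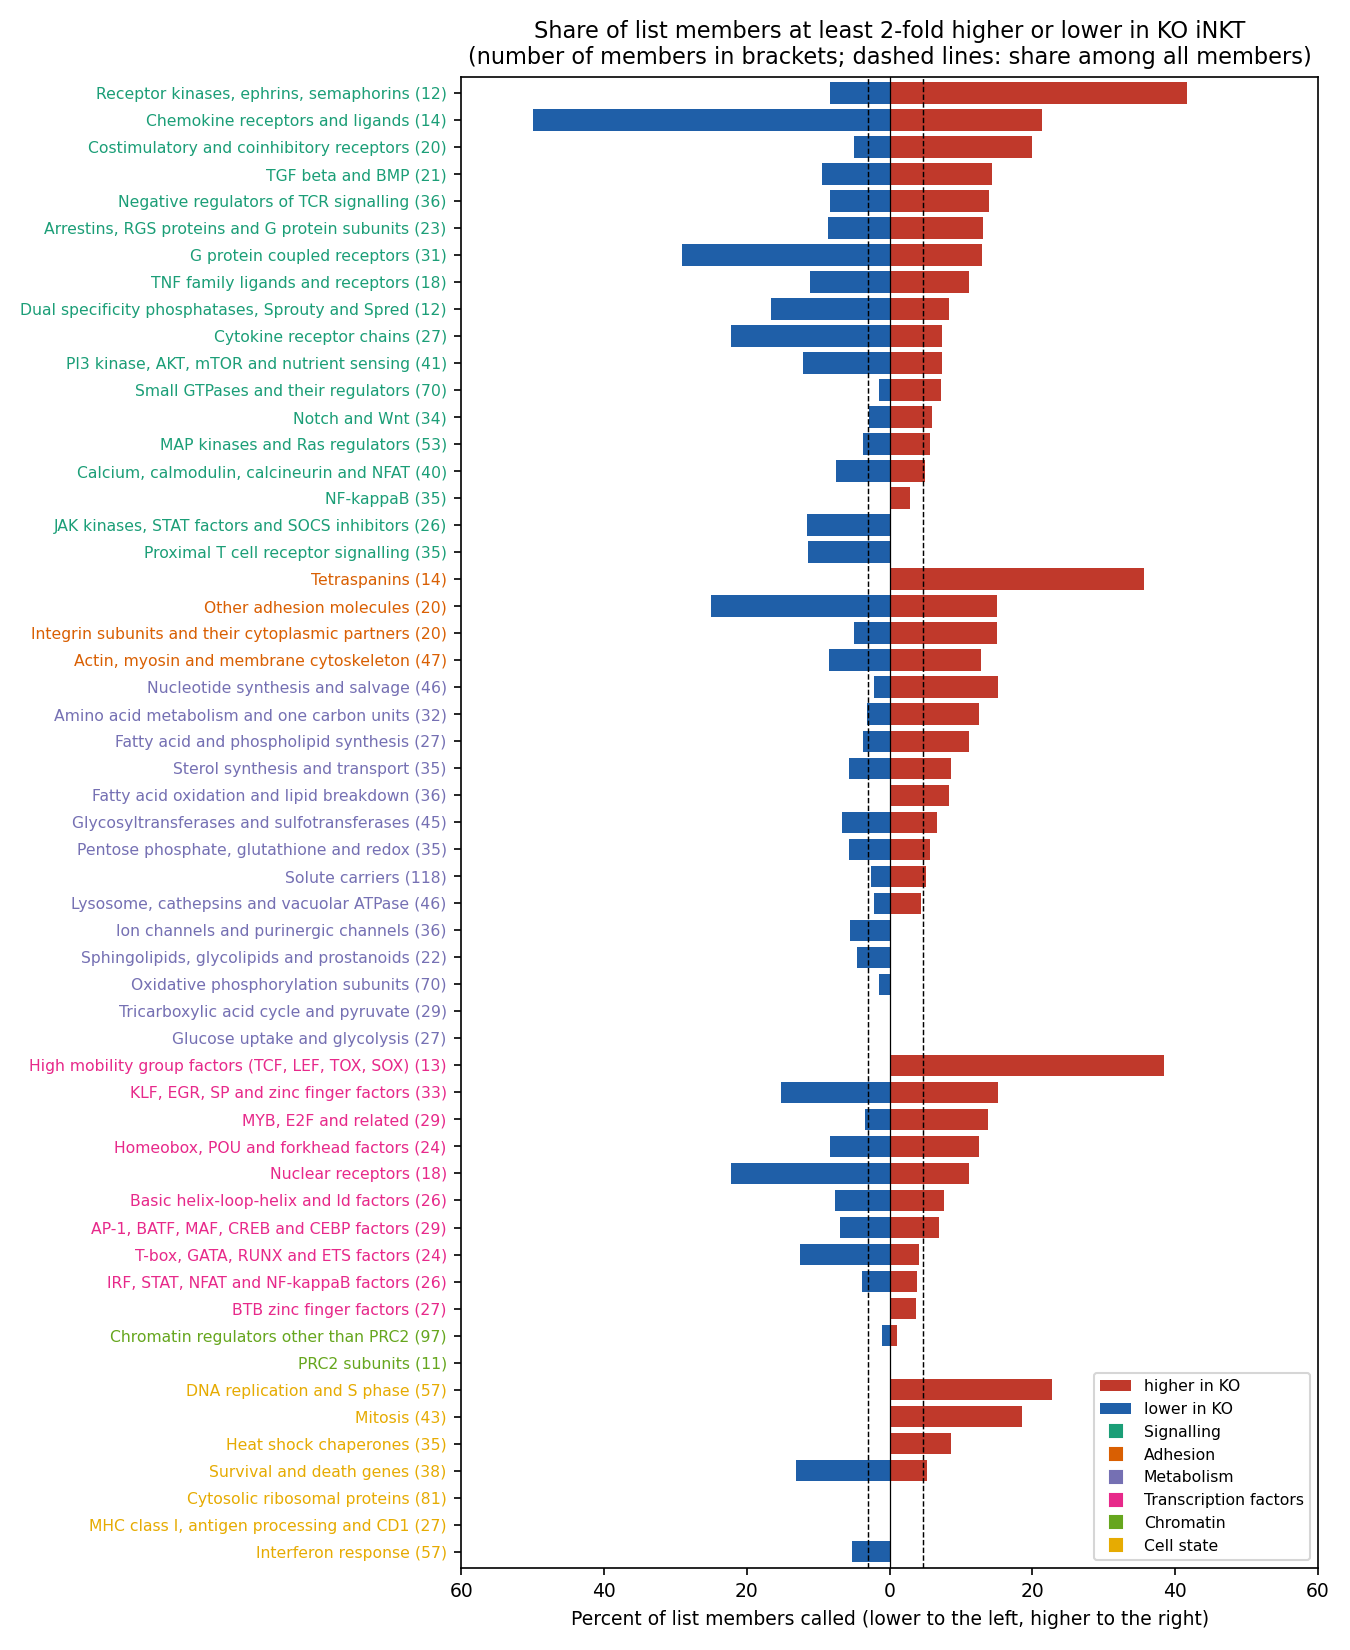
For each of these functional lists with at least 10 members, the bars give the percent of members called higher (red, to the right) or lower (blue, to the left) in KO iNKT, and the dashed lines give 4.67% and 3.09%, the shares among all members. Chemokine receptors and ligands reach furthest to the left (7 of 14 lower), receptor kinases, ephrins and semaphorins furthest to the right (5 of 12 higher), and glycolysis, the tricarboxylic acid cycle, PRC2, MHC class I and ribosomal proteins have no bar.

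Several cytokine receptor chains were lower in KO, among them the abundant beta chain of the IL-2 and IL-15 receptors. Of 27 members of the list 6 were lower and 2 higher (median -0.30). Il2rb, which encodes that shared beta chain, was at 814 FPKM in WT and 198 in KO, 4.11-fold lower (95% counting interval 3.98 to 4.25). Il2ra, the alpha chain of the IL-2 receptor, was at 23.7 and 5.05, while Il2rg, the common gamma chain, was at 528 and 422 and Il15ra at 18.4 and 15.8, both within 2-fold. Chains of the same receptor thus lay on both sides of the threshold. Il12rb2, the inducible IL-12 receptor chain, was at 29.1 and 4.51 FPKM, whereas its partner Il12rb1 was at 63.7 and 38.3. Il10ra was at 7.77 and 1.14. The interferon-gamma receptor chains went opposite ways: Ifngr1, which binds the ligand, was at 91.8 and 23.3 FPKM, and Ifngr2, the signalling chain that T cells regulate, at 3.53 and 10.4. Il6st, the gp130 chain of the IL-6 family receptors, was higher (3.91 and 11.4). Il7r was abundant in both libraries (598 and 316) and just within the threshold.

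Downstream of these receptors, 2 feedback inhibitors were lower in KO, whereas the JAK kinases named below stayed within 2-fold. Of 26 JAK, STAT and SOCS genes 3 were lower and 0 higher (median 0.01). Socs2, an inhibitor induced by STAT5, was at 27.3 FPKM in WT and 0.444 in KO, a 61.6-fold difference (interval 33.0 to 128). Cish, another STAT5-induced inhibitor, was at 31.7 and 7.23, and Stat4, which carries the IL-12 signal, at 47.3 and 9.03. Stat5b was at 35.6 and 43.6 FPKM, Stat5a at 15.7 and 27.0, and Jak1 at 162 and 133. Jak3, which pairs with the common gamma chain, was at 56.7 and 81.6. Both STAT5 genes were within 2-fold.

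Most genes of the proximal T cell receptor pathway were within 2-fold, and several of its negative regulators were not. Of 35 proximal signalling genes 4 were lower and 0 higher (median -0.21): Txk, a Tec kinase (85.4 and 28.8 FPKM), Vav3 (15.3 and 5.91), Nck2 (19.6 and 8.01) and Rasgrp1, the Ras activator (80.1 and 36.5). Lck was at 361 and 346 and Zap70 at 165 and 189, and the adaptor Lat, at 381 and 233, was within 2-fold. Among 36 negative regulators 5 were higher and 3 lower (median 0.06). Ptpn5, a tyrosine phosphatase best known from neurons, was at 0.892 FPKM in WT and 71.4 in KO, an 80.0-fold difference (48.8 to 151). Ptpn6, which encodes SHP-1, was at 96.4 and 228, Ptpn13 at 2.16 and 12.3, and the ubiquitin ligase gene Rnf128 (GRAIL) at 1.52 and 6.82. On the lower side, Ptpn22, the phosphatase that acts on Lck, was at 234 and 78.6, Nedd4, a ubiquitin ligase, at 38.7 and 10.1, and Ubash3a (STS-2) at 12.6 and 4.37. Phosphatase genes thus stood on both sides of this list.

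Feedback regulators of the MAP kinase pathway went both ways. Dusp6 and Dusp5, phosphatases that act on ERK, were at 51.7 and 51.5 FPKM in WT and 14.3 and 18.1 in KO. Spry1, a Sprouty inhibitor of the same pathway, was at 1.61 and 8.62. Of 53 MAP kinases and Ras regulators 3 were higher (Rasgef1a, Mapk11 and Rps6ka5) and 2 lower (Rasgrp1 and Mapk7), with a median of 0.00, and of 35 NF-kappaB genes only Bcl3 was higher (9.49 and 20.8) and 0 were lower. Most of the kinases in these cascades did not pass 2-fold.

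In the calcium list, 2 of 40 members were higher and 3 lower (median -0.03). Nrgn, which encodes the calmodulin-binding protein neurogranin, was at 6.75 FPKM in WT and 172 in KO, 25.4-fold higher (19.04 to 34.6), and Nfatc1, the inducible NFAT factor, was at 58.5 and 146. The granule-docking genes Sytl3 (41.3 and 3.35) and Sytl1 (20.8 and 5.31) were lower, as was Camk2b (5.34 and 0.810). In the PI3 kinase and mTOR list, 5 of 41 members were lower and 3 higher (median 0.02). The regulatory subunits Pik3r5 (41.2 and 11.5) and Pik3r1 (65.2 and 27.4) and the PI3 kinase inhibitor Pik3ip1 (67.5 and 28.4) were lower, and so was Sgk1 (19.2 and 9.07). The stress-induced mTOR regulators Sesn1 and Sesn2 went opposite ways, Sesn1 at 87.6 and 40.3 and Sesn2 at 1.97 and 5.19, and Eif4ebp1, the translation repressor that mTOR inactivates, was at 3.49 and 9.91.

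Several receptors for ligands outside the cytokine network passed the filter through KO alone, among them Epha3, Ryk, Plxna3, Fzd6 and Bmpr1a. For such genes a value under 5 FPKM in WT and above it in KO is fixed by the filter. That also favours a call of higher in the counts that follow. Of 12 receptor kinases, ephrins, semaphorins and plexins 5 were higher and 1 lower (median 0.45), and 32 further genes of this list were at 0 in both libraries. Epha3, an ephrin receptor, was at 0.0513 FPKM in WT and 22.4 in KO. Ryk, a Wnt receptor without kinase activity, was at 0.127 and 11.3. The semaphorin receptors Plxna3 (1.90 and 17.7) and Nrp1 (8.84 and 37.6) and the neurotrophin receptor Ntrk3 (5.25 and 29.3) were higher, whereas the ligand Sema4a was lower (102 and 37.4). In the TGF beta and BMP list 3 of 21 were higher and 2 lower (median 0.10). Eng, the co-receptor endoglin, was at 2.58 and 71.9 FPKM, a 27.9-fold difference (20.7 to 38.8), and Bmpr1a, a BMP type I receptor, at 0.330 and 6.38. Smad7, the inhibitory SMAD, was at 16.3 and 3.001, and Id3 and Id2, both targets of BMP signalling in many cells, parted as given below for the transcription factors. In the Notch and Wnt list, Fzd6, a Frizzled receptor (0.599 and 9.38), and Rnf43, the ubiquitin ligase that removes Frizzled from the surface (1.70 and 29.4), were higher, and Dtx1, a Notch target and regulator, was lower (120.2 and 29.6); the other 31 of 34 members were within 2-fold.

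G protein coupled receptors differed more often than most lists. Of 31 members 9 were lower and 4 higher (median -0.55). Among those lower were the lysophosphatidic acid receptor gene Lpar6 (82.5 and 24.6 FPKM), the acid sensor Gpr65 (113 and 41.8), the adhesion receptor Cd97 (415 and 141), the prostaglandin E2 receptor Ptger4 (47.4 and 18.8) and the thrombin receptor F2r (51.6 and 20.4). Hrh4, a histamine receptor, was at 5.81 in WT and listed at 0 in KO. Those higher were F2rl1, the protease receptor PAR2 (1.97 and 18.2), Gpr146, Lpar5 and Gpr183, the oxysterol receptor that guides cells in the spleen (7.92 and 20.8). Of 14 chemokine receptors and ligands 7 were lower and 3 higher (median -1.13). The receptors of inflamed tissue and liver were lower, among them Cxcr6 (468 and 94.6), Cxcr3 (234 and 89.9) and Ccr2 (106 and 27.8), and Ccr9, the gut receptor, with them (41.0 and 8.81). Ligands that were lower were Ccl5 (925 and 204) and Xcl1 (150 and 37.2). Cxcr5, Ccr4 and Ccr7, which guide cells to follicles, skin and T cell zones, were higher, Ccr7 at 13.2 and 34.6 and Ccr4 at 10.8 and 46.2. Behind these receptors, of 23 genes of arrestins, RGS proteins and G protein subunits 3 were higher and 2 lower (median 0.09). The subunit genes Gnb4 (1.22 and 8.16) and Gna12 were higher and Gna15 lower (18.1 and 3.87). Of the RGS genes, whose products end such signals, Rgs10 was higher (42.4 and 92.6) and Rgs1 lower (125 and 62.0).

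**Figure D3:**
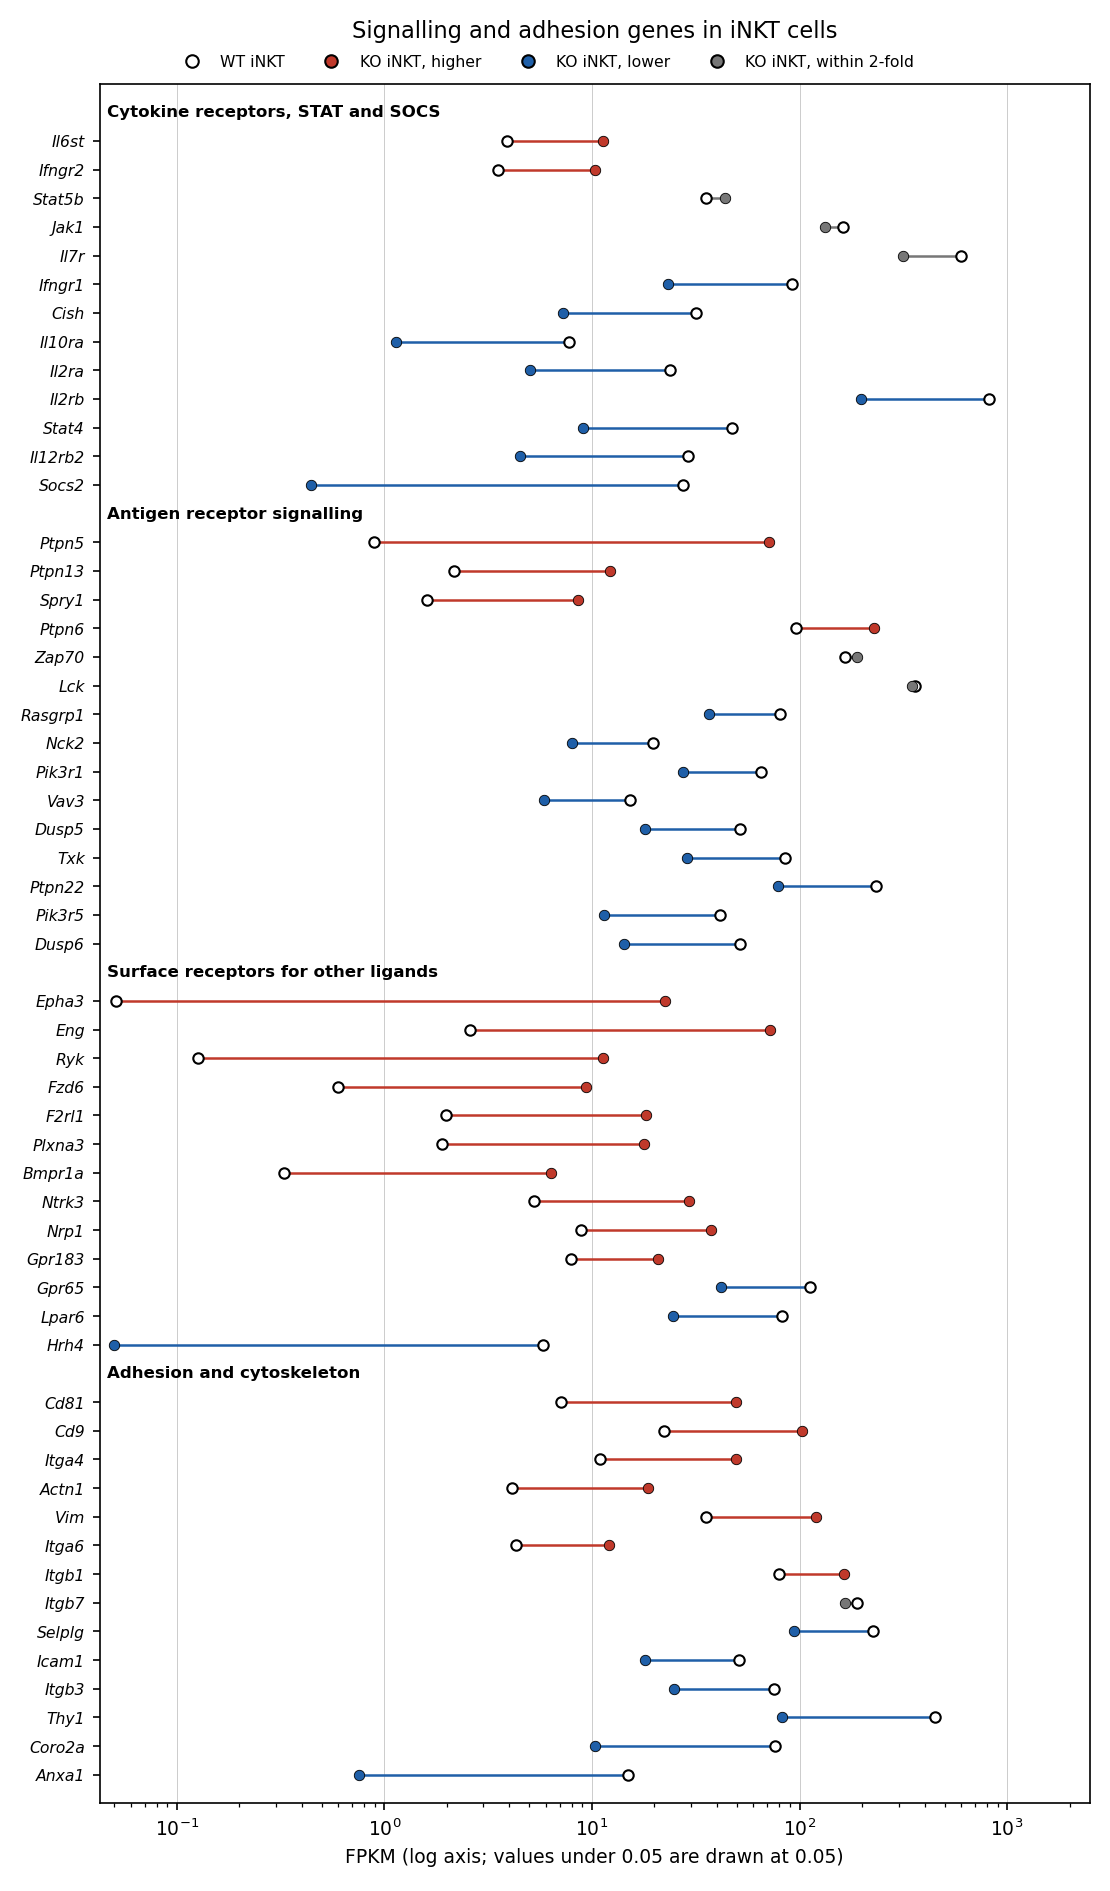
FPKM in WT iNKT (open circles) and KO iNKT (filled circles) on a log axis for signalling and adhesion genes, in 4 groups, 1 library per circle. Within cytokine signalling Socs2 has the longest line (27.3 to 0.444 FPKM) while Jak1 and Stat5b stay close together, and Epha3, Ryk, Fzd6 and Bmpr1a start below 1 FPKM in WT.

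Genes that shape and move the cell differed in a few members of large families. Of 70 genes of small GTPases and their regulators 5 were higher and 1 lower (median -0.01): Arhgap24 (0.722 and 18.3 FPKM) and Arap3 (2.24 and 28.0), which switch off GTPases, Tiam1 (1.89 and 18.9) and Cyth3, which switch them on, and the kinase Pak1 were higher. The abundant Rac2 was at 497 and 417. Of 47 actin, myosin and membrane cytoskeleton genes 6 were higher and 4 lower (median 0.29). The intermediate filament gene Vim was at 35.6 and 119.7, the crosslinker Actn1 at 4.13 and 18.7, and the annexin Anxa2 at 27.1 and 91.8. On the lower side were Coro2a, a coronin (76.2 and 10.4; 7.35-fold, 6.39 to 8.49), Lsp1, a leukocyte actin-binding protein (529 and 239), and Anxa1 (15.0 and 0.752). Annexin genes thus stood on both sides of this list.

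Integrin chains differed singly. Itga4, the alpha 4 chain, was at 10.9 FPKM in WT and 49.4 in KO, a 4.54-fold difference (4.13 to 5.0003), and Itgb1, the beta 1 chain that pairs with it in VLA-4, at 80.0 and 163. Itgb7, the other partner of alpha 4, was at 190 and 165, and Itgb2 and Itgal, the chains of LFA-1, at 335 and 256 and at 334 and 312. Itga6 was higher (4.31 and 12.04) and Itgb3 lower (75.03 and 24.8); the other 16 of 20 members were within 2-fold (median -0.07). Of 14 tetraspanins, membrane proteins that organise integrins and receptors in the membrane, 5 were higher and 0 lower (median 0.19). Cd81 was at 7.07 and 49.5 and Cd9 at 22.2 and 102, with Tspan4, Tspan9 and Tspan5 also higher, and Cd82, the most abundant that did not pass, at 320 and 272. Of 20 other adhesion molecules 5 were lower and 3 higher (median -0.43). Those lower were Selplg, the selectin ligand PSGL-1 (226 and 94.5), Icam1 (51.1 and 17.9), Cd2 (166 and 63.3), Cd226 (116 and 41.3) and Lgals3 (18.4 and 4.73), and those higher Pecam1 (22.1 and 52.4), Clstn3 and Thbs1, which was at 0.0692 and 6.399. Among SLAM receptors, which iNKT precursors need for their selection, Slamf6 was higher (74.3 and 151), Cd48 (118 and 26.9) and Slamf7 (24.6 and 5.93) were lower, and the adaptor gene Sh2d1a was at 127 and 159. In the S100 family, S100a4 was at 76.1 and 8.497 while S100a11 was at 265 and 702.

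Central energy metabolism did not pass 2-fold, while single enzymes of synthesis did. Of 27 glycolysis and glucose uptake genes (median 0.21) and 29 genes of the tricarboxylic acid cycle (median 0.05) 0 were called; Ldha was at 190 and 237 FPKM, Slc2a1, the glucose transporter GLUT1, at 14.1 and 9.30, and Hk1 at 33.7 and 39.1. Of 70 oxidative phosphorylation genes (median 0.10) only Ndufs5 was called, from 22.2 to 0.00789, the second value being less than 1 fragment is worth and therefore uncertain. Txnip, an inhibitor of glucose uptake and of thioredoxin, was at 426 and 113, 3.77-fold lower (3.57 to 3.98). In the redox list it was joined by Sesn1, against Gstt2 and Prdx4, which were higher.

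Some enzymes that build amino acids and nucleotides were higher. Of 32 amino acid and one-carbon genes 4 were higher and 1 lower (median 0.27). Asns, asparagine synthetase, was listed at 0 in WT and at 6.34 FPKM in KO, Psat1, of serine synthesis, was at 17.6 and 48.2, and Shmt1 and Mthfd1l, of the folate cycle, at 3.12 and 8.47 and at 8.89 and 19.8. The one lower was Ckb, a creatine kinase (123 and 49.7). The amino acid transporters Slc7a5, of leucine (5.67 and 17.8), and Slc7a1, of arginine (6.88 and 17.8), were among the 6 of 118 solute carriers that were higher (5.08%, near the 4.67% of all members), as was Slc29a1, a nucleoside transporter (20.1 and 84.5). The 3 carriers lower were Slc27a6, of fatty acids (15.2 and 2.02), Slc16a6 and Slc2a8. Of 46 nucleotide genes 7 were higher, 2 of them with a pseudocount of 5, and 1 lower (median 0.41), the higher ones including Dctpp1 (9.90 and 27.1), Rrm2, a ribonucleotide reductase subunit (16.4 and 35.6), and Uck2 (12.98 and 28.1), and the lower one being Entpd1, which encodes CD39 (9.40 and 3.45).

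Among lipid genes, Acly, which makes acetyl-CoA for synthesis, was at 49.8 and 136 FPKM (2.73-fold, 2.55 to 2.93), and Scd2, a desaturase, at 12.4 and 28.7. Fabp5 (1.59 and 9.72), Decr1 (4.64 and 21.3) and Eci1 (10.3 and 27.7), of fatty acid binding and oxidation, were higher, with 0 of 36 members of that list lower (median 0.25). Cpt1a, which admits fatty acids to mitochondria, was at 23.8 and 36.0, within 2-fold. In the sterol list Cyp51 was higher at a low level, and Soat2, which esterifies cholesterol, was lower (30.0 and 11.6). Sialyltransferases also parted: St6gal1 was at 11.2 and 49.1 and St3gal1 at 11.4 and 27.5, both higher, and St3gal6 was at 45.4 and 22.2.

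Transcription factors of the high mobility group had the largest share of members higher among the factor families listed: 5 of 13, with 0 lower (median 0.80). They were Tox2 (0.658 and 25.6 FPKM), Tox (6.58 and 47.5), Sox13 (0.873 and 6.30), Tcf7 (159 and 558) and Lef1 (30.9 and 74.5). Tox2 and Sox13 passed the filter through KO alone. Sox13 is also 1 of 3 gamma delta T cell markers among the members. Of the others, Cd163l1 was lower (6.91 and 2.09) and 1 was within 2-fold. The part of such cells was not tested. The Id proteins, which block E proteins from binding DNA, went opposite ways. Id3 was at 11.4 FPKM in WT and 175 in KO, 15.4-fold higher (12.1 to 19.9), and Id2 at 1172 and 441, 2.66-fold lower (2.57 to 2.75). Id2 remained the more abundant of the pair in both libraries. Of 26 members of the basic helix-loop-helix and Id list 2 were higher and 2 lower in all. The others called were Cry2 (3.17 and 7.52), higher, and Bhlhe40 (74.9 and 14.7), lower. Cry2 is a clock gene that the list holds, and not itself a basic helix-loop-helix or Id factor.

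Among homeobox, POU and forkhead factors, Hhex, whose CpG-rich promoter is printed above, was at 1.85 and 29.3 FPKM (15.8-fold, 11.4 to 23.1). Pbx3 and Foxp4 were also higher, and Hopx (78.9 and 33.9) and Pou6f1 were lower. Of 18 nuclear receptors 2 were higher and 4 lower (median -0.27). Vdr, the vitamin D receptor, was at 1.77 and 28.0 and Nr4a2 at 0.823 and 17.0, whereas Rora was at 16.5 and 6.22, and the clock repressors Nr1d1 and Nr1d2 at 13.98 and 2.66 and at 22.7 and 7.59. Dbp, another clock output gene, was at 9.52 and 2.64.

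The zinc finger list was balanced, with 5 of 33 members higher and 5 lower (median -0.15). The early growth response genes Egr2 (1.96 and 14.6 FPKM), Egr3 (5.43 and 25.3) and Egr1 (26.1 and 62.3), induced by antigen receptor signals, were higher, and Fos, an immediate early gene of another family, was at 167 and 197. Snai3 (19.005 and 2.33), Prdm1, which encodes BLIMP-1 (12.4 and 1.74), Klf4, Klf6 and Bcl11b (40.5 and 19.4) were lower. Klf2, which controls exit from lymphoid organs, was at 47.7 and 51.0, and its target S1pr1 at 27.0 and 41.8. In the T-box, GATA, RUNX and ETS list 3 of 24 were lower, Tbx21 (70.4 and 19.5), Runx3 (24.8 and 10.7) and Etv5, and the Ikaros factor Ikzf2 was higher (15.6 and 53.3). Zbtb16, which encodes PLZF, was the only member of 27 BTB factors called (28.2 and 63.1). Of 29 AP-1 and related factors Batf (36.5 and 76.0) and Batf3 (0 and 7.05) were higher, and Jun (69.0 and 18.0) and Dbp lower. Myb, a factor of proliferating precursors, was at 7.04 and 56.6, and Foxo1, Satb1 and Bach2 stayed within 2-fold.

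**Figure D4:**
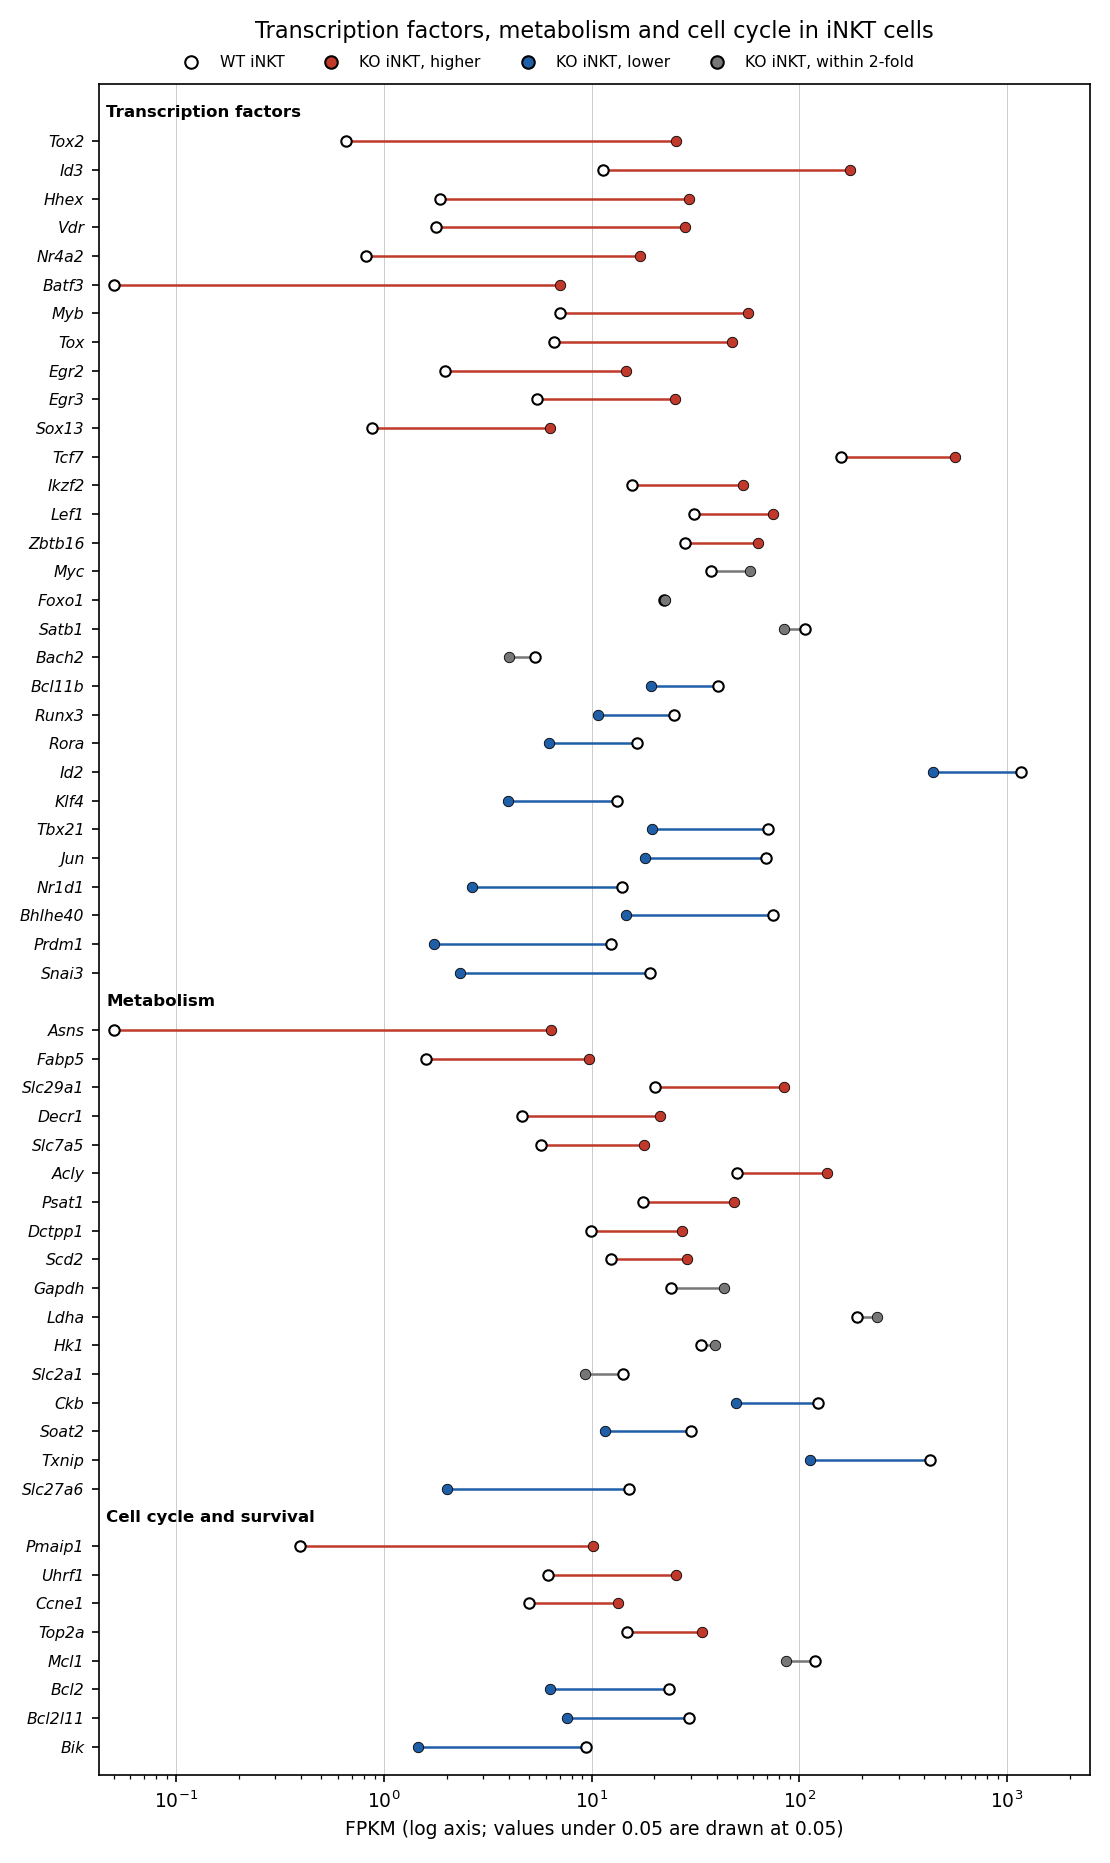
FPKM in WT iNKT (open circles) and KO iNKT (filled circles) on a log axis for transcription factors, metabolic genes and genes of the cell cycle and survival, 1 library per circle; values under 0.05 are drawn at 0.05. Id3 and Id2 move in opposite directions, and Gapdh, Ldha, Hk1 and Slc2a1 stay within 2-fold while Asns starts from 0.

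Chromatin genes rarely passed 2-fold. Of 97 chromatin regulators outside PRC2, Uhrf1, which maintains DNA methylation, was higher (6.14 and 25.6 FPKM) and Pcgf1, a subunit of a variant PRC1, lower (7.80 and 2.14), and 95 were within 2-fold (median 0.06). Of 11 PRC2 genes 0 were called, with Suz12 at 35.6 and 40.7 and Ezh1, the other catalytic subunit, at 21.7 and 16.6; Phf1 lay at the edge (78.2 and 38.6).

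Part of the replication and mitosis genes were higher in KO, and 0 were lower. These calls depended on the pseudocount: with one of 5, the replication and the mitosis list each kept 1 gene called, and none of the 6 examples given here was called. Of 57 genes of DNA replication and S phase 13 were higher and 0 lower (median 0.58), among them Chaf1a (3.55 and 11.5 FPKM), Ccne1 (4.97 and 13.4) and Lig1 (8.65 and 21.2), and of 43 mitosis genes 8 were higher and 0 lower (median 0.70), among them Top2a (14.7 and 34.1), Cdc25b (20.3 and 45.5) and Cdc20 (4.23 and 10.9). Pcna, the most abundant S phase gene that did not pass, was at 128 and 164. Survival genes leaned the other way, with 5 of 38 lower and 2 higher (median -0.27). Bcl2 (23.6 and 6.31) and Bcl2l1 (19.7 and 9.09), which protect cells, and Bcl2l11, Bik and Fasl, which kill them, were lower, and the death gene Pmaip1 (0.395 and 10.2) was among those higher. Protective and killing genes thus both stood on the lower side. Of 57 interferon response genes 3 were lower (Gbp10, Gbp6 and Ly6c1) and 0 higher, with a median of -0.46. All 8 GIMAP GTPases, which support T cell survival, were below 0 in difference, as were 3846 of all 8381 members. Only Gimap7, which lies 1.19 megabases from Ezh2, was past 2-fold (119 and 50.8). In the CD44hi pair the summed FPKM of the GIMAP genes was 2297 in WT and 2629 in KO. Serpina3f (77.6 and 2.74), Serpina3g and Serpinb6b, protease inhibitors of the serpin family, were lower. Of 35 heat shock genes 3 were higher, the most abundant being Hsp90ab1 (391 and 927), and 81 ribosomal protein genes were all within 2-fold (median 0.11).

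The same genes were read in the CD44hi pair, which shares no library with the iNKT pair. Those libraries held far more RNA of other cells, and unequally: Cd74 was at 1337 FPKM in WT CD44hi and 2171 in KO CD44hi, and Tyrobp at 121 and 305. The part of these cells in the values was not tested. Sex-linked transcripts were also unequal in this pair, with Eif2s3y at 22.7 FPKM in WT CD44hi and 0 in KO CD44hi. Of the 8381 members 120 were higher in KO CD44hi (1.43%) and 44 lower (0.525%). Of the 391 genes higher in KO iNKT, 49 were also higher there (12.5%) and 14 lower (3.58%); of the 259 lower in KO iNKT, 13 were also lower (5.02%) and 20 higher (7.72%). The median difference in the CD44hi pair was 0.11 for the first set and 0.02 for the second, so most genes called in iNKT cells were within 2-fold in CD44hi cells. Of the 49 genes higher in both pairs, 12 lay on chromosome 6, which has 401 of the members and carries Ezh2 and the Klra genes. On that chromosome 28 members were higher in KO iNKT.

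Required to reach 5 FPKM in a CD44hi library, 31 genes were higher in both pairs in place of 49. Eng, among the genes higher in both, was at 0.553 FPKM in WT CD44hi and 38.9 in KO CD44hi, Epha3 at 0.362 and 7.39, Fzd6 at 0.406 and 4.96, Bmpr1a at 0.458 and 4.93 (both under that minimum), and Sox13 at 0.0947 and 6.30. Arhgap24 was at 0.214 and 5.50, Hhex at 5.29 and 14.9, Zbtb16 at 4.30 and 41.4 and Atp6v0d2, a proton pump subunit, at 3.15 and 30.4. Lower in both were the STAT5-induced inhibitors Socs2 (12.4 and 4.60 in CD44hi) and Cish (33.7 and 15.2), S100a4 (601 and 257), Serpina3f, Prdm1, Bhlhe40 and Ubash3a (45.5 and 18.4). By contrast Id3 was at 38.7 and 47.9 in CD44hi cells, Il2rb at 178 and 102 and Ptpn5 at 5.03 and 2.95, all within 2-fold. Whether the genotype difference itself differs between the cell types was not tested.

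**Figure D5:**
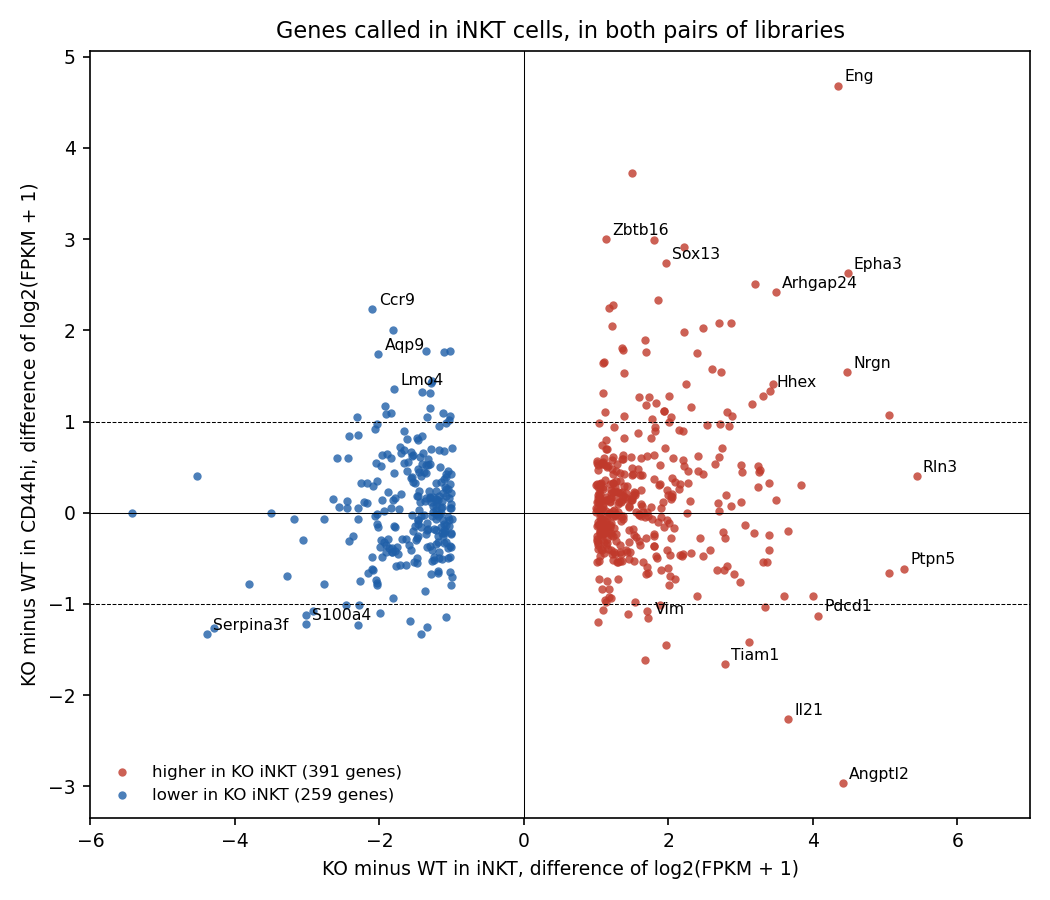
For the 650 genes called in iNKT cells, the x axis gives the KO minus WT difference of log2(FPKM + 1) in iNKT cells and the y axis the same in CD44hi cells; dashed lines mark 2-fold in CD44hi cells. Most points lie between the dashed lines, Eng and Epha3 stand at the upper right, and Pdcd1, Il21, Tiam1 and Angptl2 at the lower right.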

How the data were processed

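RNA sequencing of 4 libraries was deposited as 1 table of gene symbols and FPKM values per library, per the file headers. Tools listed in the submitters' processing notes are Cufflinks 2.0.2, TopHat 1.3.2 and Bowtie2 2.0.0, with mm10 as the build and no order of steps; the annotation and the strand setting are not given in the sources used here, and the kit does not mark strand. Rows sharing a symbol (240) were summed, and 777 small RNA symbols and the 26 symbols turned into dates in the CD44hi files were left out. The difference of log2(FPKM + 1) between the libraries, with a pseudocount of 1, was taken for the members; it understates the change of low genes, and folds in the text are plain ratios. Steps between low FPKM values of genes of at least 3000 bases (GENCODE M21 lengths) gave the relative depth, and fragments estimated so gave exact Clopper-Pearson intervals at 95%, for 90.9% of members; the scripts were tested on simulated data. RefSeq tables gave promoters and coordinates for GRCm38.p6, with 8327 members matched; of several windows of a gene (1385 members) the first listed was used. Named genes were the 40 largest and 40 smallest differences, in each of 70 lists up to 5 called genes per direction and the 2 most abundant uncalled ones, and a fixed set of regulators; genes named outside this rule (among them Noxa1, Gm12238, Il15ra, Stat5a, Stat5b, Jak3, Lat, Zap70, Hk1, Gapdh, Mcl1 (plotted only), neighbours on chromosomes and some list members) were chosen after their values were seen. The members and lists were chosen with earlier results of these data known. Computations used Python 3.11.15, pandas 2.3.3, numpy 2.4.6 and scipy 1.17.1. Some genes are not reported here.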

Additional observations from a re-analysis of the deposited data

Results flagged for a closer look

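Of the genes called in iNKT cells, 14 that were higher and 20 that were lower differed at least 2-fold in the opposite direction in the CD44hi pair, and the 18 of them that the rule for named genes covers are given here. The 14 were 3.58% of the genes higher in KO iNKT, against 0.525% of all members lower in KO CD44hi. The 20 were 7.72% of the genes lower in KO iNKT, against 1.43% of all members higher in KO CD44hi. With 1 library per group the difference between the cell types was not tested. Higher in KO iNKT and lower in KO CD44hi, with log2(FPKM + 1) differences in iNKT and CD44hi cells, were Angptl2 (4.42 and -2.96), Pdcd1, the receptor PD-1 (4.07 and -1.13), Il21 (3.66 and -2.26), Cxcr5 (3.33 and -1.03), Sccpdh (3.11 and -1.42), Tiam1 (2.78 and -1.66), Nrp1 (1.97 and -1.45), Spry1 (1.88 and -1.01), Vim (1.72 and -1.16), Igfbp4 (1.67 and -1.61), S100a6 (1.10 and -1.07) and Itgb1 (1.02 and -1.19). In FPKM, WT CD44hi cells were above WT iNKT cells for all 12 of these, for example Pdcd1 at 53.6 against 10.2, Vim at 227 against 35.6 and Itgb1 at 214 against 80.0. Picking genes for a rise in iNKT cells and a fall in CD44hi cells favours this order, so it is no separate result.

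Lower in KO iNKT and higher in KO CD44hi were Ckb (-1.29 and 1.42), Soat2 (-1.30 and 1.15), Tyrobp (-1.42 and 1.32), Nedd4 (-1.85 and 1.09), Ccr9 (-2.10 and 2.24) and Prrt1 (-2.31 and 1.05). Tyrobp and Ccr9 stand in the marker lists of NK or myeloid cells and of plasmacytoid dendritic cells; the summed FPKM of the latter list was 187 in WT CD44hi and 754 in KO CD44hi.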

How the results depend on the processing

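No paired analysis was possible because each group was 1 library, and for the same reason no library could be left out. The 391 genes higher and 259 lower became 198 and 172 with a pseudocount of 5, 156 and 157 among genes at 20 FPKM or more in 1 of the 2 libraries, and 171 and 103 at 3-fold; with 1 FPKM as the minimum, or with no filter, 658 were higher and 361 lower. The share of called genes that were higher was 60.2% in the main setting and 49.8% at 20 FPKM or more. A pseudocount of 0.1 (449 and 310), a mean of at least 5 FPKM (299 and 227), a median difference set to 0 (365 and 276, a shift of 0.03), upper quartile scaling (391 and 258) and no symbols on several rows (387 and 258) kept the counts within 1.5 times. A counting interval that leaves out 1 gave 358 and 235, which are all the called genes that have an interval, so it tests nothing further. Of 280 named genes that were called, 199 remained called with a pseudocount of 5, 276 with the median difference set to 0 and 279 with upper quartile scaling, and 0 reversed. At 5 FPKM or more in a CD44hi library, 31 genes were higher in both pairs, in place of 49. At 3-fold, CpG-rich promoters made up 51.5% of genes higher and 35.5% of those lower, against 60.1% and 51.3% at 2-fold, and 4.71% of genes higher were followed by another, against 8.48%, where the share of members called was itself lower (2.04% against 4.67%). Depth limits the low side: 1 fragment in 2 kilobases is worth about 0.1 FPKM in an iNKT library, and folds of genes near that level are imprecise.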
